A study of Rattus norvegicus with 4 samples.

Results

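Erythroid and hemoglobin genes were followed in rat trigeminal nerve tissue over 4 Visium capture areas. The set comprised 6 of the 32623 genes in the count matrix, chosen by symbol: Hbb (ENSRNOG00000058105), Hba-a3 (ENSRNOG00000045989), Alas2 (ENSRNOG00000000167), Ahsp (ENSRNOG00000020165), Slc4a1 (ENSRNOG00000020951) and Rhd (ENSRNOG00000017130). Hbb and Hba-a3 encode a beta and an alpha chain of adult hemoglobin. Alas2, Ahsp, Slc4a1 and Rhd are genes of red cell precursors and are called the precursor genes here. The rule for the set was made to keep these 4 apart from hemoglobin RNA that can lie wherever blood lies.

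The areas held cryosections of the semilunar ganglion with its root and its nearest branches, taken from adult male Sprague-Dawley rats, labelled wild type. TN1, TN2 and TN3 came from the operated side after chronic unilateral compression of the trigeminal root, with 1 animal in each area. HC, the healthy control, was 1 area with tissue of 2 animals that cannot be separated in the counts. By the series description it was the healthy side of 2 of the 3 TN animals, whereas the methods describe sham-operated controls. All results below are for sums of unique molecular identifiers (UMIs, 1 for each captured RNA molecule) in spots, each a small disc of tissue that can hold several cells. Totals ranged from 23546025 UMIs in TN1 to 41335930 in HC, and the median per spot from 9487 in TN1 to 30808 in TN2. Barcode sequences recur between areas, with 2337 of 3573 found in 2 or more of them, so each spot was identified by its barcode and its area number.

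Red cells form in bone marrow from nucleated precursors, which build hemoglobin and then expel the nucleus. Reticulocytes, the youngest cells in blood, still carry globin RNA and some RNA of the late precursor program, while older red cells lose it. In the developing cell the transcription factors Gata1 and Klf1, which bind GATA and CACCC motifs, switch on globin, heme and membrane genes together.

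RefSeq held promoter sequence for 4 of the 6 members (Hbb, Hba-a3, Alas2 and Rhd), and the 150 bases before each start are shown because these genes are the ones compared below. The build is GRCr8, which may differ from that of the counts. The windows are chr1:167663722-167663871 on the minus strand for Hbb, chr10:15816944-15817093 on the minus strand for Hba-a3, chrX:22895300-22895449 on the plus strand for Alas2 and chr5:152371050-152371199 on the plus strand for Rhd. Each is written 5′ to 3′ along its gene, and capitals mark 3 motifs on either strand. They are GATAA (reverse complement TTATC), the letters CACCC (reverse complement GGGTG), and the letters CCAAT (reverse complement ATTGG).
Hbb: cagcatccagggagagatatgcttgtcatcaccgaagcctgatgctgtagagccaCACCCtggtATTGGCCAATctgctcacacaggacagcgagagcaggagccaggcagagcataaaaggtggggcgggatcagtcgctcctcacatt
Hba-a3: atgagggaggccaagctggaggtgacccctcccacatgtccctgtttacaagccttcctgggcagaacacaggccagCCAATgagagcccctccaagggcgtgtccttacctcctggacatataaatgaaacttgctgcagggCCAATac
Alas2: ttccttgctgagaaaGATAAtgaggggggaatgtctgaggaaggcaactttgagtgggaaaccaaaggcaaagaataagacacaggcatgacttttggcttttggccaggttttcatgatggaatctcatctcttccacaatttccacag
Rhd: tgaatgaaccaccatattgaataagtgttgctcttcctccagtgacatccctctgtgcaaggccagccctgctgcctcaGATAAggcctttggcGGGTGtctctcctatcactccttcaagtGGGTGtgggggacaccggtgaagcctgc
GATAA was found in the windows of Alas2 and Rhd, with its first base at -135 and -71 from the start, and in neither globin window. Over all 33469 promoter windows of this length, 14.2% held it on either strand. CACCC was found once in Hbb (-95) and at 2 positions in Rhd (-56 and -28), against 35.2% of all windows. CCAAT was found at 2 positions in each globin window, one of the Hbb matches being on the opposite strand and joined to the other, against 23.5% of all windows. These matches are letters in a short window and were not tested as binding sites.

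Hbb was detected in most spots of every area, and neither hemoglobin member was ordered by condition. Its level in CPM (UMIs scaled to the same total in each area) was 304 in HC against 482, 102 and 210 in TN1, TN2 and TN3, so HC lay within the TN range. The TN mean was 265 ± 196 (SD, n = 3). Hba-a3 stood at 103 CPM in TN1, 29.8 in TN2 and 152 in TN3, with 143 in HC, and HC again lay inside the TN range, with a TN mean of 94.8 ± 61.4 (SD, n = 3). The order of the TN areas differed between both chains, with TN1 highest for Hbb and TN3 highest for Hba-a3.

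Alas2, the enzyme that starts heme synthesis in red cell precursors, was at 20.7 CPM in TN1, 10.1 in TN2 and 33.6 in TN3, with 40.6 in HC. Ahsp, the chaperone that holds free alpha chains, was at 13.2, 2.68, 12.9 and 21.0 CPM in TN1, TN2, TN3 and HC. All 3 TN areas were thus below HC for both genes, but TN3 was within 1.21-fold of HC for Alas2. Slc4a1, the anion exchanger (band 3) of the red cell membrane, was at 5.52 CPM in TN1, 1.08 in TN2 and 7.82 in TN3, with 20.6 in HC. HC exceeded TN1, TN2 and TN3 by 3.72-fold, 19.0-fold and 2.63-fold for Slc4a1, the widest gaps among the 6 members. Rhd, a protein of the Rh blood group complex, was at 2.17, 1.01, 2.14 and 3.73 CPM in TN1, TN2, TN3 and HC, from only 39 to 154 UMIs an area. TN2, the area with most UMIs per spot, was lowest for every member.

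**Figure D1:**
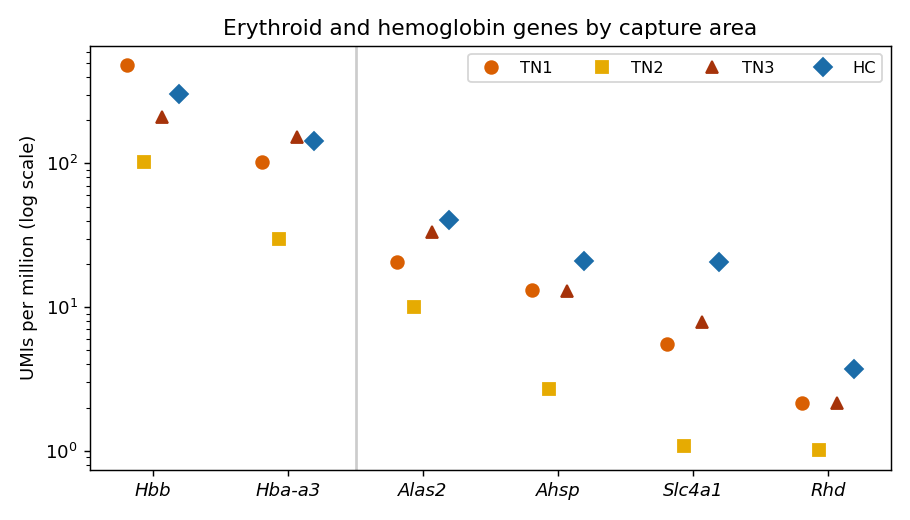
Level of each member in CPM (log axis) in the 4 capture areas, 1 point an area. HC is the highest point for Alas2, Ahsp, Slc4a1 and Rhd, at 40.6, 21.0, 20.6 and 3.73, but not for Hbb or Hba-a3, and TN2 is the lowest for all 6.

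TN and HC were compared on the sums per area with the edgeR quasi-likelihood test. None of the 6 members passed a Benjamini-Hochberg adjusted p of 0.05, where the share of all genes called was 0% of 14902 tested. At an unadjusted p under 0.05 the test gave 1271 genes and no member, and DESeq2 called 164 genes and no member. Without TN1 the edgeR quasi-likelihood fit called 2171 genes and still no member. The log2 fold change (TN minus HC) was -0.99 ± 0.63 (SE) for Alas2, -1.21 ± 0.85 for Ahsp, -2.17 ± 0.93 for Slc4a1 and -1.15 ± 0.58 for Rhd. For Hbb it was -0.28 ± 0.83 and for Hba-a3 -0.67 ± 0.83. The smallest edgeR quasi-likelihood adjusted p among the 6 was 0.556, for Slc4a1, and the others ran from 0.564 for Rhd to 0.914 for Hbb. HC lay above all 3 TN areas for 4 of the 6 members, the 4 precursor genes, and below them for 0 of the 6. Of all genes tested, 30.6% had HC above and 28.7% below all 3 TN areas. The median log2 fold change was -1.18 over the 4 precursor genes and 0.06 over all genes tested. HC is 1 area and lends no spread to these tests, which have 2 residual degrees of freedom and assume that it varies as the TN areas do. Condition cannot be told apart from capture area, and in sums over spots fewer cells of a type cannot be told apart from less RNA per cell.

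Genes listed as markers of other marrow cells did not all have the same order. The 11 neutrophil granule genes summed to between 37.7 and 44.9 CPM in the TN areas and to 251 in HC, with HC above all 3 TN areas for 9 of 11. Ltf had 0 UMIs in TN1 and 7 at most elsewhere, and no gene of the list was at 0 in all areas. The 6 bone genes summed to between 74.8 and 100.1 in TN and to 209 in HC. HC was above all TN areas for 2 of 6 and below them for 2 of 6. The latter were Sp7, at 1 UMI an area, and Ifitm5, at 2 or 3. Of the 4 bone genes with enough counts to be tested, HC was above all TN areas for 2 and below them for 0. The summed megakaryocyte and platelet genes had the opposite order, at between 17.6 and 75.1 CPM in the TN areas and 7.35 in HC. Pf4 alone gave the largest part of each sum, at 14.3, 70.4, 29.2 and 3.97 CPM in TN1, TN2, TN3 and HC. HC was below all TN areas for 3 of 6 and above them for 1 of 6, with Ppbp at 0 or 1 UMI an area. The 7 macrophage genes were also lowest in HC, summing to 668, 1891, 2278 and 364 CPM in TN1, TN2, TN3 and HC. Which cells gave the Pf4 UMIs was not tested. The 5 B lineage genes summed to between 4.69 and 7.98 CPM in TN and to 9.29 in HC. HC was above all TN areas for 4 of 5, with Pax5 and Vpreb1 found only in HC, at 3 and 1 UMIs. Of all genes tested over all spots, 30.6% had HC above and 28.7% below all 3 TN areas. The part of these cell types in the precursor gene levels was not tested.

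The same fit was made in narrower sets of spots. In the region called sensory neuron, made of 2 clusters led by Nefl and Tac1 and by Csrp3 and Gal, 688 HC spots entered, and 207, 363 and 169 spots of the TN areas in order. All 688 HC spots lay in the first cluster, with 148 of the 207 TN1 spots, 40 of the 363 TN2 spots and 100 of the 169 TN3 spots, so that TN2 lay largely in the other cluster. Alas2 was at 8.50 normalised CPM (with TMM factors) in TN1, 4.68 in TN2 and 15.4 in TN3, with 22.5 in HC, and Slc4a1 at 1.97, 0.374, 4.24 and 11.0. HC lay above all 3 TN areas for 5 of the 6 members, all but Hbb, and below them for 0, where 29.7% of all genes tested had the former order and 27.3% the latter. Hba-a3 was nearly level between TN3 and HC, at 69.5 and 69.8 normalised CPM, and on plain CPM the order turned, with 69.7 in TN3 and 67.3 in HC, which leaves 4 of the 6. The log2 fold changes were -1.27 ± 0.56 (SE) for Alas2 and -2.44 ± 0.91 for Slc4a1, with edgeR quasi-likelihood adjusted p of 0.547 and 0.537. No member passed, and no gene did (0% of 12836), while 1181 genes had an unadjusted p under 0.05, DESeq2 called 118, and Slc4a1 was the only member with an unadjusted p under 0.05 (edgeR quasi-likelihood, 0.0362).

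The second set left out a region led by S100a8, S100a9, Camp and RatNP-3b, genes of neutrophil granules, and called the S100a8 region here. It held 344 spots of TN1, 95 of TN2 and 296 of TN3, with 566 of HC. The clustering left out the genes of the erythroid lists, but genes not on those lists, such as Alox15 of maturing reticulocytes, could enter. The leading genes of the region also included Alox15, globin rows named Hba-a2, and Slc4a1. Outside the S100a8 region, Alas2 was at 17.3 normalised CPM in TN1, 9.30 in TN2 and 29.7 in TN3. HC, at 25.3, lay inside the TN range. For Slc4a1 HC was still the highest, at 4.45, 0.960, 6.72 and 12.3 in TN1, TN2, TN3 and HC. Its log2 fold change was -1.61 ± 0.93 (SE), and that of Alas2 was -0.43 ± 0.62, which became -0.09 without TN2 and -0.91 without TN3. HC stood above all TN areas for 3 of the 6 members outside the region and below them for 0, against 31.1% and 29.5% of all genes tested. None of the 14763 genes (0%) nor any member was called by the edgeR quasi-likelihood test, with 1417 genes at an unadjusted p under 0.05 and 188 called by DESeq2. Without TN1 it called 3223 genes outside the region and 613 in the sensory neuron region, again with no member.

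**Figure D2:**
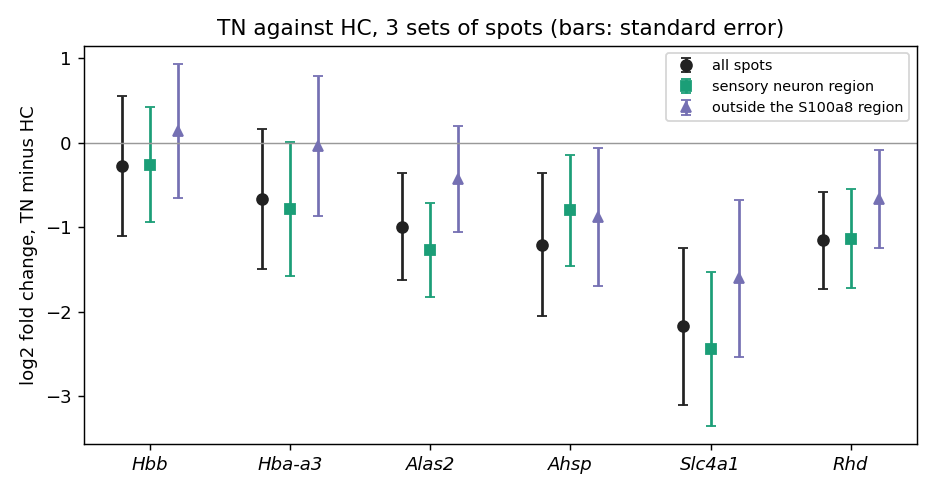
Log2 fold change (TN minus HC) of each member in all spots, in the sensory neuron region and outside the S100a8 region, with bars of 1 standard error from the edgeR quasi-likelihood fit. Slc4a1 lies lowest in each set, at -2.17, -2.44 and -1.61, and the bars of Hbb include 0 in all 3.

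The members were then placed in the whole globin signal. Hbb and Hba-a3 held only a small part of it, 5.93% of globin UMIs in TN1, 2.43% in TN2 and 1.96% in TN3, with 2.24% in HC. The rest lay in 2 rows named Hba-a2 and in the rows LOC689064 and LOC100134871, which RefSeq names Hbb-bs and Hbbl1. Globin genes are near-identical copies, so reads may have been split between rows in a way that the counts do not show. UMIs are not scaled by length, and the shares serve to compare areas, not genes. All globin rows together took 0.986% of the UMIs in TN1, 0.543% in TN2 and 1.85% in TN3, with 2.00% in HC. At least 1 globin UMI was found in 100% of TN1 spots, 99.9% of TN2 spots, 99.6% of TN3 spots and 99.95% of HC spots, where 1 spot had none. Hbg1, Hbe1, Hbe2, Hbz and Hbq1a, the embryonic and minor globin rows, reached 8 UMIs at most in any area.

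The make-up of the globin UMIs differed between areas. The ratio of alpha rows to beta rows was 1.60 in HC against 1.06, 1.12 and 1.11 in TN1, TN2 and TN3, so HC fell outside the narrow TN range. The difference was spread over the spots. In spots with 200 or more globin UMIs, which were 1154 in HC against 269, 265 and 797 in TN1, TN2 and TN3, the median alpha share of alpha and beta rows was 52.1%, 52.5% and 52.7% in the TN areas and 62.1% in HC, and the 10th and 90th percentiles in HC were 54.6% and 69.7%. Hbb made up 10.1% of beta-row UMIs in TN1 (95% exact binomial interval 9.91% to 10.3%), 3.99% in TN2 and 2.40% in TN3, with 3.95% in HC. TN1 thus stood apart from the other areas for Hbb, with a median of 9.06% over its spots and 2.15% in TN3. Hba-a3 made up 2.02% of alpha-row UMIs in TN1, 1.04% in TN2 and 1.56% in TN3, with 1.17% in HC. Intervals here and below cover counting error only.

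**Figure D3:**
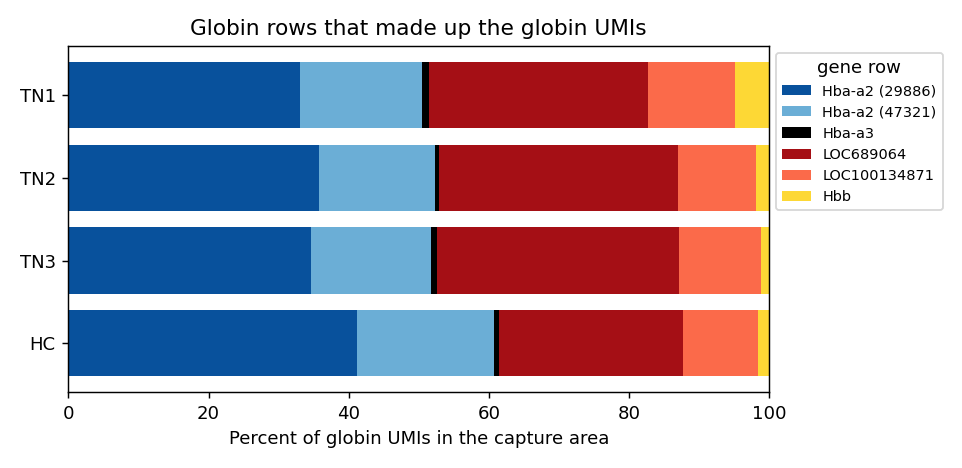
Percent of the globin UMIs of each capture area in the 6 most abundant globin rows (1 colour a row). The 2 Hba-a2 rows are widest in HC, at 41.2% and 19.5%, and Hbb is widest in TN1, at 4.89%.

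More spots of each area held a UMI of Hbb or Hba-a3 than of any precursor gene. The hemoglobin members also had higher levels in CPM, and the share of spots with a UMI rises with level, so it cannot separate the groups by itself. Hbb had a UMI in 87.3% of TN1 spots, 81.2% of TN2 and 82.0% of TN3, with 91.4% of HC spots, and Hba-a3 in 45.6%, 41.1%, 66.3% and 71.8%. Alas2 was found in 16.5% of TN1 spots, 20.7% of TN2 and 31.5% of TN3, with 44.0% of HC spots (exact binomial interval 41.8% to 46.2%), Ahsp in 14.5%, 7.56%, 14.97% and 28.1%, Slc4a1 in 5.92%, 3.11%, 10.7% and 26.9%, and Rhd in 3.02%, 3.11%, 3.39% and 6.36%. With every spot thinned to 2000 UMIs, Alas2 remained in 4.46%, 2.28%, 7.95% and 11.5% of spots and Slc4a1 in 1.33%, 0.341%, 2.17% and 6.60% of TN1, TN2, TN3 and HC, leaving out 9, 16, 116 and 9 shallower spots. HC stood highest in the full and the thinned shares of both genes, whereas Hbb after thinning was in 48.8% of TN1 and 46.2% of HC spots. The 10% of spots richest in Alas2 held 78.9% of its UMIs in TN1 and 48.0% in HC. For Hbb the 10% richest held 49.4% and 35.0%, and for Hba-a3 64.7% and 46.2%, close to Alas2 in HC. This share rises as UMIs get fewer, so it cannot separate genes or areas by itself either. Alas2 had 488 UMIs in TN1 and 1680 in HC. Rhd, with the fewest UMIs, was at 100% in each area.

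Levels of all 6 members were higher inside the S100a8 region than outside it in all 4 areas, although Ahsp and Rhd rested on 2 and 1 UMIs there in TN2. The region was shallower than other tissue, with a median of 2455 to 6580 UMIs per spot inside and 11134 to 32433 outside. Alas2 was at 17.5 CPM outside and 56.1 inside in TN1, 9.64 and 37.0 in TN2, 29.7 and 166 in TN3, and 24.2 and 187 in HC. Hbb was at 414 outside and 1231 inside in TN1, 98.5 and 318 in TN2, 192 and 834 in TN3, and 202 and 1215 in HC. In HC the region, with 10.1% of the UMIs, held 46.5% of the Alas2 UMIs, 48.8% of the Slc4a1 UMIs and 40.4% of the Hbb UMIs, as well as 57.7% of the neutrophil granule UMIs. In TN1 and TN2 the granule genes were low inside it too, at 82.6 and 48.7 CPM, whereas they were at 372 CPM in TN3 and 1432 CPM in HC. Central myelin genes summed to 1158 CPM inside and 560 outside it in HC, so the region also held markers of other tissue.

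Inside and outside that region Alas2 stood in nearly the same ratio to hemoglobin. Per 1000 globin UMIs there were 2.00 Alas2 UMIs inside and 2.13 outside in TN1, 1.72 and 1.86 in TN2, 1.81 and 1.82 in TN3, and 1.97 and 2.09 in HC, with exact intervals that overlap in each area. Across areas the Alas2 ratio to all globin rows was also close, at 2.10, 1.85, 1.82 and 2.03 per 1000 in TN1, TN2, TN3 and HC. The Alas2 level differed by 4.04-fold between TN2 and HC. Against the 2 hemoglobin members alone the ratio was not close across areas. They held 13773, 5106, 11678 and 18499 UMIs in TN1, TN2, TN3 and HC, and Alas2 held 488, 390, 1082 and 1680. Over 25 pairs of region and area the Alas2 ratio ran from 0.801 to 2.99, with a median of 1.87. For the sum of the 4 precursor genes over the 2 hemoglobin members, the log2 of the inside ratio over the outside ratio was 0.05 in HC against -0.07, -0.09 and 0.27 in TN1, TN2 and TN3 (mean 0.04 ± 0.17 SD, n = 4). With all globin rows below the line, a measure added after the data were seen, the mean was -0.16 ± 0.15 (SD, n = 4). The sign of either measure was not the same in all 4 areas. In HC, Ahsp differed across the border, at 0.804 per 1000 globin UMIs inside (exact interval 0.718 to 0.897) and 1.28 outside (1.18 to 1.39). TN3 had the opposite order, as the region held 15.8% of its Ahsp and 14.1% of its globin UMIs. TN1, at 18.1% and 23.6%, had the order of HC. So had TN2, at 1.92% and 6.09%, from 2 Ahsp UMIs inside.

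**Figure D4:**
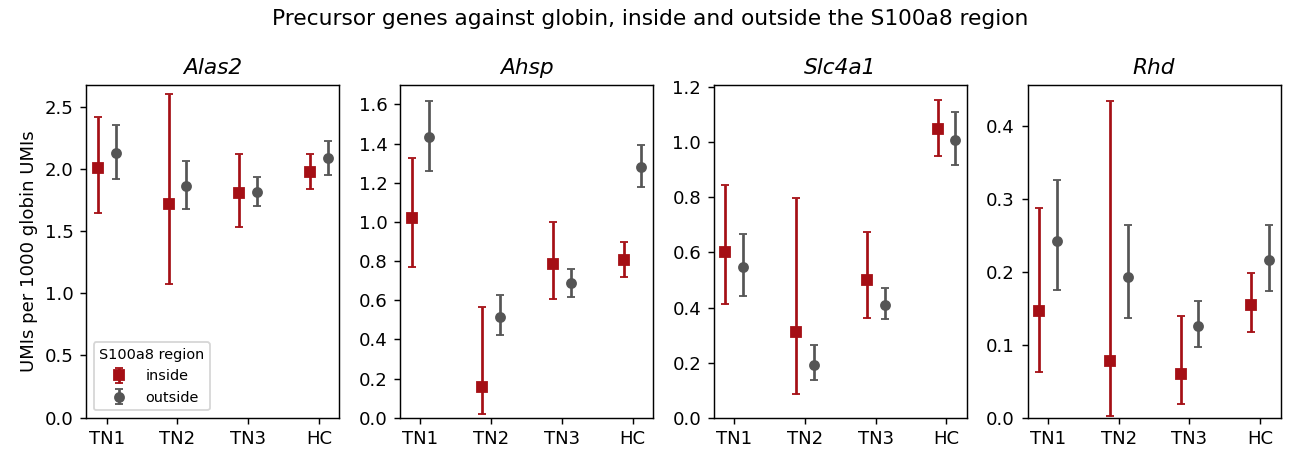
UMIs of each precursor gene per 1000 globin UMIs, inside and outside the S100a8 region of each area, with 95% exact intervals for counting error. Alas2 lies between 1.72 and 2.13 in all 8 points, whereas Slc4a1 runs from 0.192 in TN2 to 1.05 in HC.

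Slc4a1 and Ahsp did not keep one ratio between areas. Slc4a1 stood at 0.560 UMIs per 1000 globin UMIs in TN1 (exact interval 0.468 to 0.665), 0.200 in TN2 (0.144 to 0.270) and 0.423 in TN3 (0.372 to 0.479), with 1.03 in HC (0.960 to 1.10). HC was the highest and its interval met no TN interval. Ahsp stood at 1.05 (0.984 to 1.13) in HC against 1.33 (1.19 to 1.49), 0.494 (0.404 to 0.599) and 0.700 (0.634 to 0.770) in TN1, TN2 and TN3. The HC interval of Ahsp met no TN interval either, but HC lay between TN1 and the other TN areas. Rhd stood at 0.220, 0.185, 0.116 and 0.186 in TN1, TN2, TN3 and HC, with HC inside the TN range. Within each area the Slc4a1 intervals inside and outside the S100a8 region overlapped, with 1.05 and 1.01 in HC and 0.601 and 0.547 in TN1, so the gap between HC and the TN areas was present on both sides of the region's border.

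The ratio of Ahsp to Alas2 also differed within areas. Spots of each area were ranked by their globin share and split into 4 groups of equal size. Per 100 Alas2 UMIs, Ahsp had 124 UMIs in the lowest group and 48.1 in the highest in TN1, 91.3 and 10.7 in TN2, 76.4 and 31.5 in TN3, and 87.8 and 42.9 in HC. The exact intervals of the lowest and highest groups did not overlap in any of the 4 areas. The level of Ahsp went the other way from its ratio. From the lowest to the highest group it rose from 5.07 to 41.2 CPM in TN1 and 1.87 to 3.75 in TN2. In TN3 it rose from 6.16 to 36.5 and in HC from 9.79 to 85.8. Rhd had 37.8 UMIs per 100 Alas2 UMIs in the lowest and 7.30 in the highest group of TN1 and 60.9 and 4.35 in TN2, without overlap, and 11.2 and 5.68 in TN3 and 13.3 and 8.01 in HC, where the intervals overlapped. Slc4a1 per 100 Alas2 UMIs was 18.9 in the lowest and 26.8 in the highest group in TN1, 21.7 and 9.88 in TN2, 31.5 and 23.6 in TN3, and 52.8 and 54.3 in HC, with overlapping intervals in all 4 areas. The lowest group was thus the higher one in TN2 and TN3 only. Spots low in globin were also deeper, with a median of 29972 UMIs in the lowest and 7347.5 in the highest group of HC, and the part of depth in these ratios was not tested.

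The sensory neuron region, where globin was low, also had more Ahsp per Alas2 UMI. Ahsp reached 106 per 100 Alas2 UMIs in that region and 54.9 in all other spots of TN1, 62.7 and 18.1 in TN2, 76.1 and 34.3 in TN3, and 59.9 and 47.6 in HC. The region exceeded the other spots by 1.93-fold, 3.46-fold, 2.22-fold and 1.26-fold in TN1, TN2, TN3 and HC, and the exact intervals were apart in the 3 TN areas and overlapped slightly in HC. Slc4a1 per 100 Alas2 UMIs showed no such order, with folds of 0.848, 0.700, 1.21 and 0.952. Rhd had folds of 2.48, 2.1, 1.01 and 1.44 in TN1, TN2, TN3 and HC. Its exact intervals overlapped in each area. The level of Ahsp was lower in the region than in all other spots in TN1, TN3 and HC. It was at 9.06 and 15.99 CPM in TN1, 11.76 and 13.26 in TN3, and 12.98 and 35.56 in HC. TN2 went the other way, at 3.01 and 2.46 CPM.

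**Figure D5:**
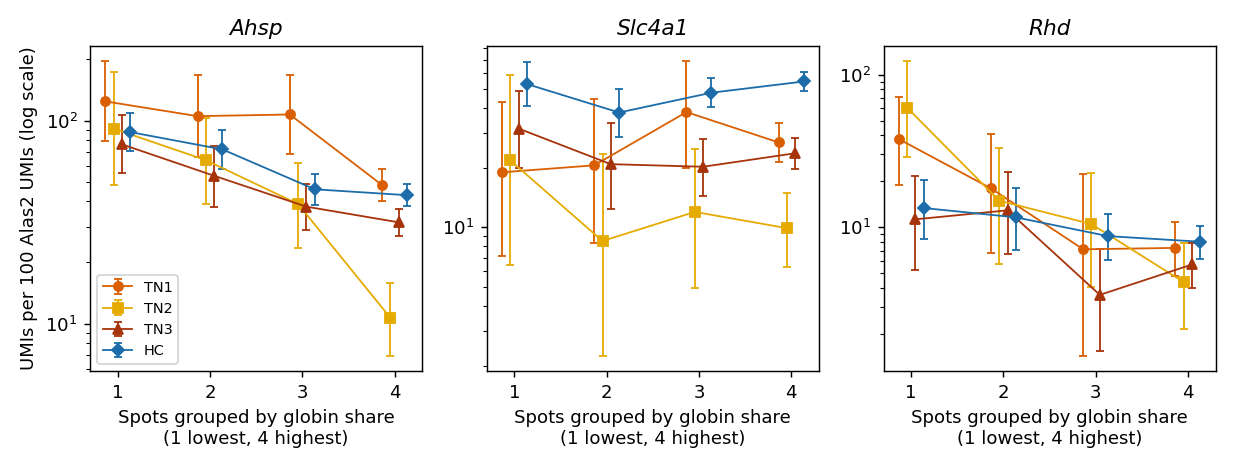
UMIs of Ahsp, Slc4a1 and Rhd per 100 Alas2 UMIs (log axes) in spots grouped by globin share within each area, with 95% exact intervals. The Ahsp ratio is higher in the lowest than in the highest group in all 4 areas, at 91.3 and 10.7 in TN2. The Slc4a1 ratio in HC is 52.8 in the lowest group and 54.3 in the highest. Levels of Ahsp in CPM, not drawn, went the other way in all 4 areas.

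A few spots were rich in precursor genes. Those with 10 or more precursor UMIs numbered 37 in HC against 8, 0 and 16 in TN1, TN2 and TN3. They were 1.84% of the spots in HC against 0.504%, 0% and 0.835% in TN1, TN2 and TN3. The threshold was not adjusted for depth per spot, which differed between areas. Globin made up a median of 13.7%, 10.6% and 13.6% of the UMIs of these spots in TN1, TN3 and HC. Ahsp exceeded Alas2 in 1 of the 8, 5 of the 16 and 8 of the 37. In 3 TN3 spots and 5 HC spots, Ahsp reached 10 UMIs or more and exceeded Alas2, a selection made on these values and described without a test. The TN3 spots held 64 Ahsp and 11 Alas2 UMIs, which is 25.6 Ahsp UMIs per 1000 globin UMIs, and 0.595 in the other TN3 spots. One of them, in the peripheral myelin region, had 34 Ahsp and 4 Alas2 UMIs. Genes not used in the selection were also present in the 3 spots, with 7 UMIs of Klf1, the erythroid transcription factor, 12 of Car1, an early erythroid carbonic anhydrase, and 8 of Mki67, a marker of dividing cells. Klf1 was at 172 CPM there and at 2.05 in the other TN3 spots. The 5 HC spots held 67 Ahsp, 11 Alas2, 3 Klf1, 0 Car1 and 4 Mki67 UMIs, with Klf1 at 26.7 CPM and at 3.95 in the other HC spots. Not every erythroid gene looked at was found. Gata1, Nfe2 and Hemgn had 0 UMIs in each of the 3 TN3 spots. In the 5 HC spots Gata1 had 0 UMIs in each, while some of these spots had 1 UMI of Nfe2 or of Hemgn. The TN3 spots lay in 3 different regions. Neutrophil granule genes gave 0, 0 and 1 UMI in them and 2 to 8 in each of the 5 HC spots. Over whole areas these genes were at 44.9 CPM in TN3 and 251 in HC, so the areas differed in the same direction.

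The genes whose pattern over spots was most like the members were globin rows. Likeness was the Pearson correlation of log-scaled UMIs over the spots of an area, averaged over the 4 areas, among 12351 genes seen in 100 or more spots. For the summed precursor genes the 4 other globin rows led, at 0.57 to 0.58, followed by Hbb at 0.52 and Hba-a3 at 0.48. Next came Lgals5 at 0.33 and Alox15, a lipoxygenase of maturing reticulocytes, at 0.32, then Ybx3 at 0.29 and AABR07000398.1 at 0.27. For the summed hemoglobin members the 4 globin rows stood at 0.79 to 0.81 and Alas2, at 0.51, was the first gene that is not a globin. It was followed by AABR07000398.1, AY172581.24, AY172581.9, Alox15 and Mt-nd3, at 0.35 to 0.44. Slc4a1 ranked 16th (0.31), Ahsp 24th (0.26) and Rhd 52nd (0.13). The spots of an area share their library and depth, and a gene with few UMIs can only reach a low correlation.

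Wider erythroid lists were also compared, but the sums of most did not share the place of the precursor genes, at 377 CPM inside and 53.3 outside the S100a8 region of HC. Heme synthesis genes summed to 693 and 756 there, red cell membrane genes to 426 and 497, and enzymes and maturation genes to 2045 and 2309. Erythroid transcription factors summed to 79.1 inside and 59.5 outside. A few abundant genes led such sums. Over all HC spots Prdx2 had 1228 of the 2283 CPM of enzymes and maturation genes. Tmod1 and Aqp1 had 163 and 106 of the 490 CPM of red cell membrane genes. The sums thus cannot show where less abundant genes of a list lay. Over all spots none of the 13 heme synthesis genes tested passed the test in either direction. Their median log2 fold change was -0.50, against 0.06 over all genes, with 10 below 0. Of all 14902 genes tested, 6757 were below 0. Slc25a39, Urod and Tmem14c, the most abundant of them, stood at -0.47 ± 0.22 (SE), -0.50 ± 0.21 and 0.02 ± 0.25. Among 15 red cell membrane genes tested of 17, none passed, 11 were below 0 and the median was -0.58, with Tmod1, Aqp1 and Tmcc2, which other tissues also express, at -0.97, -0.83 and -0.44. Among 17 of 20 enzymes and maturation genes none passed and 14 were below 0, with a median of -0.36, and Prdx2, Bnip3l and Cat stood at -0.36, -0.35 and -0.18. None of the 9 erythroid transcription factors tested of 10 passed, and 5 were below 0, with a median of -0.26. Ldb1, Lmo2 and Zfpm1, the most abundant, were at 0.82, 1.32 and -0.31. Gata1, Klf1 and Nfe2, named after their values were seen, were at -2.24 ± 1.31 (SE), -1.17 ± 0.54 and -1.55 ± 0.46. HC was above all 3 TN areas for each. The remaining factors tested, Tal1, Lyl1 and Bcl11a, were at 0.34 ± 0.43, 0.56 ± 0.52 and -0.26 ± 0.92. Of the 9 factors, HC was above all 3 TN areas for 4 and below them for 3, against 30.6% and 28.7% of all genes tested. Gata1 rested on 5, 0 and 4 UMIs in the TN areas and 19 in HC.

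Genes that clear hemoglobin and heme had a median log2 fold change of 0.02 over 11 of 12 tested, none past the test and 6 above 0. The ferritin chains Fth1 and Ftl1 stood at 0.06 ± 0.39 (SE) and 0.74 ± 0.65, and Lrp1, a receptor for hemopexin among other ligands, at 1.22 ± 0.47. The 4 other globin rows tested had a median of -0.93 with all 4 below 0, and none passed.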

How the data were processed

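Spatial RNA was measured on 4 capture areas. Space Ranger (1.2.0 in the file header) made the UMI counts, which the authors deposited raw, as whole numbers in 1 matrix. A barcode's suffix tells its area. Genome build and annotation were not given in the sources used here. Members and lists were chosen with earlier results of these data known. Cldn13, Cd79a, Mcpt1 and Pecam1 were not analysed here.

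In R 4.3.3, edgeR 4.0.16 tested the summed UMIs of each area by its quasi-likelihood method, after filterByExpr and TMM scaling, with Benjamini-Hochberg adjustment at 0.05. DESeq2 1.42.0 was an alternative. The tests were checked on simulated counts. Regions came from 16088 genes with a UMI in 10 or more spots (SCTransform, sctransform 0.4.2 in Seurat 5.3.0). The 3000 most variable genes without those of the erythroid lists gave 30 principal components, and K-means used 10 centres and 50 starts. The rows LOC689064 and LOC100134871 were left out of the clustering after the files had been seen. A cluster took the name of the marker list with the highest mean of log2 of the CPM plus 5, centred over clusters, and stayed unnamed within 0.25 of the next list or where its leading genes went against the name. At 10 centres no cluster earned the name of a neutrophil or bone list, so the S100a8 region was taken from 8 centres, which is a departure from the planned setting. Named genes were the 6 members, the 3 genes of highest CPM in each erythroid list and the 10 most like the summed members. The ratios to Alas2 by globin share and by region were chosen after values were seen. So were the selection of Ahsp-rich spots and, in them, Klf1, Car1, Mki67, Gata1, Nfe2 and Hemgn. TN areas are separate animals, so p-values measure the spread between 3 animals and their capture areas.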

Additional observations from a re-analysis of the deposited data

How the results depend on the processing

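Over all spots, no member passed in any alternative (8 for each member: DESeq2 size factors, DESeq2, no filter, each TN area left out, other library totals, stricter spots), and the same holds for 12 alternatives in the sensory neuron region and 9 outside the S100a8 region. Alas2, Ahsp, Slc4a1 and Rhd stayed below 0 in all of them. With 1 TN area left out, their log2 fold changes ran over all spots from -1.47 to -0.63, -1.51 to -0.74, -2.71 to -1.67 and -1.33 to -0.84, in the sensory neuron region from -1.76 to -0.91, -1.17 to -0.37, -3.29 to -1.84 and -1.55 to -0.86, and outside the S100a8 region from -0.91 to -0.09, -1.18 to -0.42, -2.17 to -1.11 and -0.83 to -0.36. Each was nearest to 0 without TN2. With 1 TN area left out, the log2 fold change of Hbb ran from -1.04 (without TN1) to 0.14 (without TN2) over all spots, from -0.90 (without TN1) to 0.14 (without TN2) in the sensory neuron region, and from -0.55 (without TN1) to 0.54 (without TN2) outside the S100a8 region. There Hba-a3 ran from -0.58 (without TN3) to 0.40 (without TN2), and it was 0.0013 with mitochondrial, ribosomal protein and globin genes out of the library totals. The number of genes called was 0 to 2171 with a TN area left out over all spots, 0 to 613 in the sensory neuron region and 0 to 3223 outside the S100a8 region, each highest without TN1, and 29 without TN2 in the sensory neuron region. DESeq2 called 164, 118 and 188 genes, and the unfiltered edgeR fit 20 in the sensory neuron region, against 0 in the main fits. The cause was not tested. Clusters made with LOC689064 and LOC100134871 left in, added after the data were seen, also gave 0 genes called in the sensory neuron region. The inside to outside log2 ratio of precursor to hemoglobin UMIs was 0.27 with 12 clusters and -0.16 with all globin rows, and between -0.04 and 0.08 with an area left out. At 10 centres and from log-normalised counts no cluster earned the name of the S100a8 region, so the alternative from log-normalised counts was not run there. Thinning to 2000 UMIs lowered the mean share of spots over 4 areas to 37.2% for Hbb, 19.4% for Hba-a3, 6.54% for Alas2, 3.04% for Ahsp and 0.608% for Rhd. No paired analysis was possible because HC is a single area whose label carries no replicate number. With 3 areas against 1 and 2 residual degrees of freedom, even the 4.50-fold gap of Slc4a1 over all spots was not called. Large differences as well as small ones could thus be missed. Counts were also low, with 39 Rhd and 42 Slc4a1 UMIs in TN2.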
